A study of Bos taurus with 24 samples.

Results

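The comparison described here is the breed by LPS interaction at 2 h: the change in expression from hour 0 to hour 2 post-LPS in Holstein cultures minus the same change in Angus cultures. Lipopolysaccharide (LPS) is the cell wall component of Gram-negative bacteria that is sensed through TLR4. The cells were dermal fibroblasts from shoulder skin biopsies of 4 Holstein (dairy) and 4 Angus (beef) females of the same age, frozen at the same passage, revived, and exposed to 100 ng/ml of LPS. Hour 0 was the control condition, and no culture kept for 2 h without LPS was among the samples, so LPS and the 2 h of culture that go with it cannot be told apart. Every sample stood for 1 animal at 1 hour (lysates of replicate wells were pooled), which gave 16 of the 24 libraries of the series: 4 Holstein and 4 Angus at 0 h and the same 4 and 4 at 2 h. Animals were paired across hours by the number in the sample labels. The comparison was described over all rows of the count tables that carry a gene symbol, 27550 of 59846 rows, of which 12950 were expressed highly enough to be tested.

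TLR4 signals through adaptor proteins to kinase cascades that end in NF-kB and in the mitogen-activated protein (MAP) kinases ERK, JNK and p38. NF-kB drives chemokine and cytokine genes, whereas ERK acts through serum response factor and related factors on immediate-early genes such as those of the EGR, FOS, JUN and NR4A families, which are transcribed within minutes and encode transcription factors and feedback inhibitors. DUSP and SPRY family members then switch ERK off again, and ZFP36 family members speed up the decay of short-lived messages. Fibroblasts are among the resident skin cells that answer LPS with chemokines.

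Total counts in the 16 libraries ranged from 51014538 to 104406293, so that 1 CPM (the level in counts scaled to library size) stood for 51.0 to 104.4 counts and a floor of 3 counts for 0.0287 to 0.0588 CPM. Fibroblast markers (COL1A2, COL3A1, PDGFRA, PDGFRB, DCN, LUM, THY1 and FAP) had summed levels between 28150 and 48049 CPM in the Angus cultures and between 50755 and 68663 CPM in the Holstein cultures, which did not overlap. Macrophage and leukocyte markers summed to at most 5.51 CPM, with 7 of 8 under 1 CPM in every library and CD79A at 0. Keratinocyte markers reached sums of 1.98 CPM in Angus cultures and 12.3 CPM in Holstein cultures, with KRT1 at 0, and no more than 4.66 CPM was found for endothelial or melanocyte markers. In bulk RNA, fewer cells of a type and less RNA per cell cannot be told apart, and the part of these marker levels in the results was not tested. In 4 libraries (Angus animal 4, Holstein animals 2 and 4 at 0 h, Angus animal 3 at 2 h) COL1A1 showed that reads were counted differently: a count there stood for 66.2 to 67.1 covered bases, and in the other 12 libraries for 112.5 to 119.0. For the genes called below, the ratio of covered bases per count between these libraries and the others lay between 0.918 and 1.09, and of the LPS genes named below that were not called, IL6 (1.15), CXCL2 (1.15) and TNF (1.11) lay above it.

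At 2 h, the breeds differed in their response for a small set of genes, among them the ERK phosphatase gene DUSP6 and the immediate-early genes EGR3, IER2, NR4A1 and JUNB, which all responded more in Holstein. A row was called when the false discovery rate (FDR) of the interaction was under 0.05, the difference between the changes was at least 2-fold and the average level was above 1 CPM. Among rows with a symbol, 39 were called, which is 0.301% of those tested: 20 (0.154%) had a change that was higher in Holstein, and 19 (0.147%) a change that was lower. With each of the 8 animals left out in turn, 18 of the 39, EGR3 among them, were called in 4 or fewer of the 8 fits. Within breeds the same model called 439 rows for LPS in Angus (3.39%, with 260 higher and 179 lower at 2 h) and 381 in Holstein (2.94%, 270 higher and 111 lower). Of the 563 rows called for LPS in either breed, 38 (6.75%) were also called for the interaction, and 99 (17.6%) passed its FDR alone. FAM43A was the sole gene called for the interaction but for LPS in neither breed, with a 1.97-fold change in Angus. In the text below, a gene is said to have risen or fallen in a breed where its change from 0 h to 2 h in that breed had an FDR under 0.05.

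**Figure D1:**
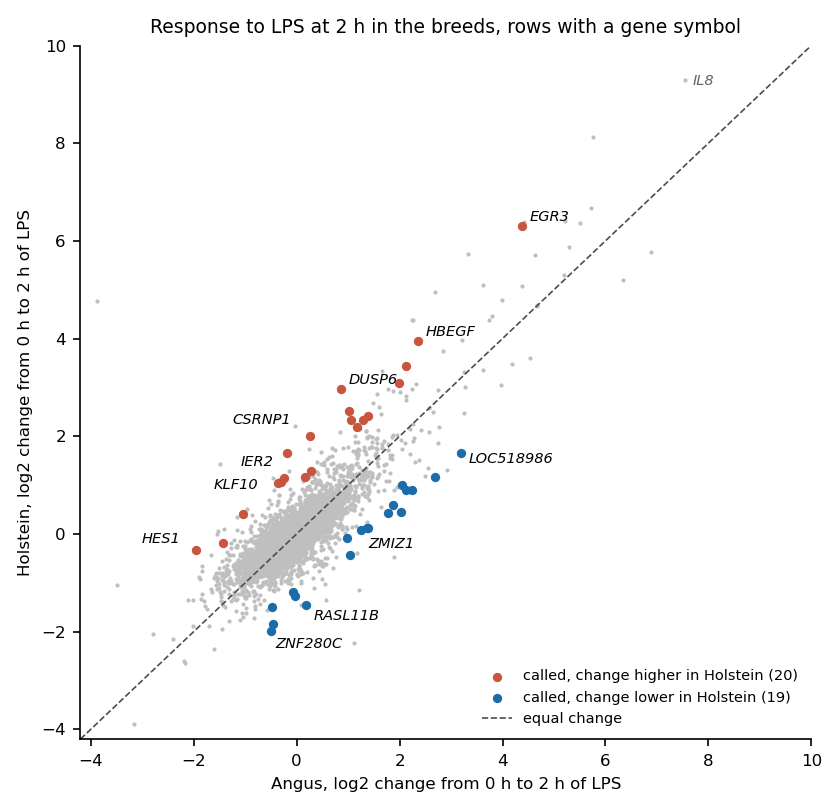
Each point is 1 of the 12950 tested rows with a gene symbol, with the log2 change from 0 h to 2 h of LPS in Angus on the x axis and in Holstein on the y axis. The 20 rows called with a higher change in Holstein (red) lie above the dashed line of equal change, the 19 called with a lower change (blue) lie below it, and the median difference of all rows was near 0 (-0.0044 on the log2 scale).

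The size of the difference alone did not make a call. At least 2-fold differences were estimated for 129 rows with a symbol, and 90 of these were not called; their median standard error (SE) was 0.465 on the log2 scale, against 0.202 for the 39 called. The FDR limit alone was passed by 321 rows (193 higher and 128 lower in Holstein) with a median absolute difference of 0.52. MIDN (1.01), ZFP36L2 (1.01) and KDM6B (1.02) lay just inside the fold limit on the log2 scale, and FRY (0.99), PMEPA1 (-0.99), F2R (-0.99), FLT1 (-0.99) and SGK1 (-0.98) just outside it. In every animal, the change was also computed as the difference of log2(CPM + 0.5) between hours. For 38 of the 39 called genes each Holstein animal lay on the same side of each Angus animal, a complete separation that held for 10.5% of all tested rows with a symbol. These changes came from the libraries on which the genes were called, so their separation follows in large part from the call and adds no separate evidence.

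DUSP6, the phosphatase that inactivates ERK in the cytoplasm (chromosome 5, 19276348 to 19280028, genome build UMD v3.1), had the largest difference of the called genes. At 0 h it stood at 11.7, 4.97, 4.02 and 12.1 CPM in Angus animals 1 to 4 and at 4.18, 2.25, 2.88 and 3.95 CPM in Holstein animals 1 to 4. At 2 h it stood at 16.1, 13.1, 13.7 and 11.7 CPM in Angus and at 33.2, 17.8, 21.3 and 31.4 CPM in Holstein. The breeds overlapped before LPS, with the lowest levels in Holstein, and after LPS each Holstein culture was above each Angus culture. The rise was 7.79-fold in Holstein and 1.82-fold in Angus, a ratio of 4.28 (2.10 ± 0.34 on the log2 scale, SE; FDR = 0.0153). Angus animal 4 did not rise (-0.05), whereas the 4 Holstein changes lay within 2.69 to 2.85.

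Of the 24 tested immediate-early genes, 6 (EGR3, IER2, NR4A1, KLF10, IER3 and JUNB) were called, each with a higher change in Holstein. IER2, which encodes a small nuclear protein (chromosome 7, 13543659 to 13545435), was at 21.5, 12.9, 13.7 and 24.6 CPM in Angus and 13, 11.9, 11.7 and 14.3 CPM in Holstein at 0 h. By 2 h it was at 17.1, 13.7, 17.2 and 13.6 CPM in Angus and 39.2, 42.4, 31.2 and 48.5 CPM in Holstein. It thus rose in Holstein (3.13-fold) while the Angus value was 0.873-fold (FDR = 0.334), and the difference was 1.84 ± 0.22 (FDR = 0.00418). KLF10, a zinc finger factor known as an early target of TGF-beta, rose from 62.6 ± 3.96 to 131 ± 15.3 CPM (SD, n = 4) in Holstein and fell from 72.3 ± 7.35 to 58.8 ± 8.4 CPM in Angus, and was the only called gene that passed the FDR in opposite directions in the breeds (difference 1.37 ± 0.15, FDR = 0.00357).

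The other 4 rose in both breeds, and more in Holstein. EGR3, a zinc finger factor on chromosome 8 (70502499 to 70506409), was at 0.116 to 0.521 CPM in all 8 cultures at 0 h. At 2 h its levels were 3.61, 4.84, 5.94 and 3.36 CPM in Angus and 20.01, 21.9, 11.6 and 22.9 CPM in Holstein, without overlap (difference 1.92 ± 0.38, FDR = 0.0315). NR4A1, an orphan nuclear receptor, rose 4.34-fold in Angus and 10.9-fold in Holstein (difference 1.33 ± 0.16, FDR = 0.00418). Its levels at 2 h overlapped nevertheless, because Angus animal 3 reached 126 CPM, above the 109 and 95.7 CPM of Holstein animals 2 and 3. JUNB, an AP-1 subunit, reached 60.0 ± 17.3 CPM in Angus and 153 ± 42.3 CPM in Holstein (difference 1.04 ± 0.16, FDR = 0.0129). IER3, a stress response gene whose row overlaps one named BOLA, reached 91.0 ± 33.1 and 205 ± 76.0 CPM (difference 1.10 ± 0.22, FDR = 0.0336).

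CSRNP1, a nuclear protein gene of the same early kind that was on none of the lists used here (chromosome 22, 12520393 to 12532806), lay within 7.69 to 10.1 CPM in the Angus cultures before LPS and within 8.18 to 10.5 CPM in the Holstein cultures. After 2 h the levels were 7.92, 14.1, 16.1 and 6.63 CPM in Angus and 39.1, 40.8, 29.5 and 40.0 CPM in Holstein. It rose 3.99-fold in Holstein, and the Angus value was 1.19-fold (FDR = 0.333), with a difference of 1.75 ± 0.28 (FDR = 0.0138). HBEGF, a growth factor that activates the EGF receptor, rose in both breeds, 5.10-fold in Angus and 15.5-fold in Holstein (difference 1.61 ± 0.30, FDR = 0.0266). Its Holstein cultures started lower on average (0.320 ± 0.0849 against 0.75 ± 0.308 CPM), and the levels at 2 h overlapped.

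Targets and inhibitors of the TGF-beta and BMP pathway were also among the called genes. ID1, an inhibitor of basic helix-loop-helix factors and a BMP target (chromosome 13, 61726125 to 61727284), was at 27.5, 31.7, 29.1 and 46.8 CPM in Angus and 11.6, 14.1, 7.06 and 6.60 CPM in Holstein at 0 h. Its levels at 2 h were 71.7, 74.7, 41.3 and 89.6 CPM in Angus and 68.6, 50.5, 49.3 and 49.6 CPM in Holstein. The breeds were apart before LPS, Holstein lower, and overlapped after it, so the higher change in Holstein (1.5 ± 0.24, FDR = 0.0148) went with a smaller gap in level. SMAD7, the inhibitory SMAD that blocks TGF-beta receptors, rose from 10.4 ± 1.48 to 27.1 ± 2.89 CPM in Angus and from 9.59 ± 1.14 to 51.2 ± 4.76 CPM in Holstein (difference 1.04 ± 0.13, FDR = 0.00431). Of 16 tested genes on the list of TGF-beta, SRF and YAP targets, these were the only 2 called, and SMAD6, ID2 and ID3 passed the FDR below the fold limit, with differences of 0.91, 0.81 and 0.44. The matricellular gene CYR61 passed it with the opposite sign (-0.57 ± 0.07, FDR = 0.0047), and the median over the list was -0.0195.

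Developmental regulators and a methylcytosine oxidase completed the genes with the largest positive differences. HES1, the repressor that acts downstream of Notch (chromosome 1, 73974240 to 73976720), was at 36.3, 41.3, 40.1 and 48.7 CPM in Angus and 35.7, 28.6, 35.8 and 38.0 CPM in Holstein at 0 h. At 2 h it was at 12.6, 12.5, 7.25 and 11.2 CPM in Angus and 31.7, 21.8, 29.98 and 26.6 CPM in Holstein. The difference (1.63 ± 0.17, FDR = 0.00357) therefore came with a fall to 0.258-fold in Angus, whereas the Holstein value of 0.795-fold missed the FDR (0.0571). DLX2, a homeobox gene, rose in Holstein (2.21-fold), with an Angus value of 0.840-fold (FDR = 0.295), and SNAI1, a repressor known for its role in epithelial-mesenchymal transition, rose 2.05-fold in Holstein with an Angus value of 0.782-fold (FDR = 0.0735). Their differences were 1.4 ± 0.26 (FDR = 0.0248) and 1.39 ± 0.21 (FDR = 0.0110). TET3, which oxidises methylated cytosine, fell in Angus from 2.45 ± 0.20 to 1.26 ± 0.58 CPM and stood at 2.79 ± 0.42 and 3.71 ± 0.63 CPM in Holstein (difference 1.45 ± 0.30, FDR = 0.0354).

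ZFP36L2, an RNA-binding protein that destabilises AU-rich messages (its row overlaps LOC100139773), rose in Holstein from 51.1 ± 11 to 123 ± 14.1 CPM, against 52.9 ± 8.67 and 64.0 ± 11 CPM in Angus (difference 1.01 ± 0.18, FDR = 0.0198). The remaining 4 genes called with a higher change in Holstein lay outside the rule for named genes and are given so that the set is complete. They were NUAK2 (1.28), a kinase related to AMPK, the pro-apoptotic BBC3 (1.26), the histone H3 lysine demethylase KDM6B (1.02) and MIDN (1.01). By the FDR within each breed, 10 of the 20 rose in both breeds, 6 rose in Holstein without passing in Angus, KLF10 went in opposite directions, and HES1, TET3 and BBC3 fell in Angus without passing in Holstein.

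**Figure D2:**
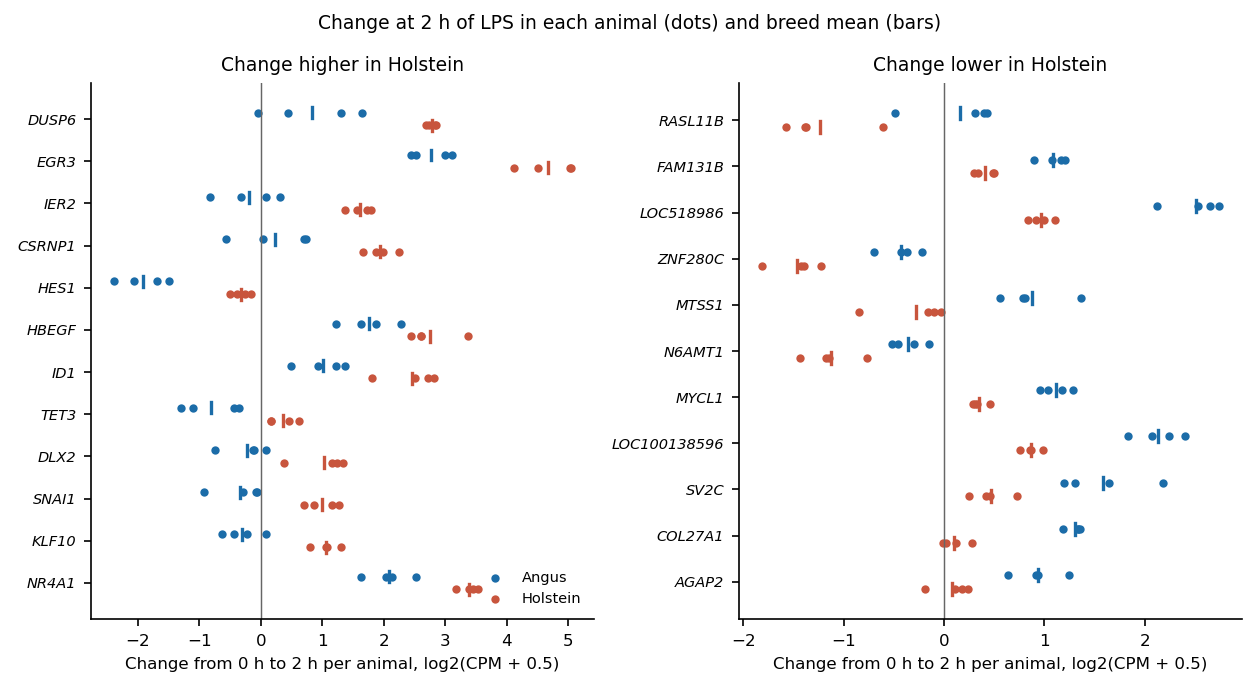
Each dot is the change of 1 animal from 0 h to 2 h in log2(CPM + 0.5), Angus in blue and Holstein in red, and each bar is the mean of a breed's 4 animals, for the 12 called and separated genes with the largest positive differences (left) and 11 with the largest negative differences (right). In the left panel every Holstein dot of a gene lies to the right of its Angus dots, and in the right panel every Holstein dot lies to the left, since separation was part of how these genes were chosen.

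None of the genes with a lower change in Holstein was a member of any of the 13 pathway and process lists used here. The lists did not hold every gene of a kind, and the collagen gene COL27A1 was on none of them. LOC518986, a locus known by number only (chromosome 19, 25933697 to 26017940), was at 1.03, 0.426, 0.444 and 1.43 CPM in Angus and 0.335, 0.516, 0.330 and 0.499 CPM in Holstein at 0 h. At 2 h it was at 9.13, 4.87, 3.63 and 12.4 CPM in Angus and 1.17, 1.69, 1.07 and 1.29 CPM in Holstein. It rose in both breeds, 9.12-fold and 3.13-fold, with each Angus culture above each Holstein culture after LPS (difference -1.54 ± 0.17, FDR = 0.00357). LOC100138596, a further numbered locus whose row overlaps TRIM13 on chromosome 12, rose 4.72-fold in Angus and 1.87-fold in Holstein and changed sides: Holstein was above Angus in every culture at 0 h (8.06 ± 1.07 against 5.11 ± 0.42 CPM) and below it at 2 h (15 ± 1.25 against 24.3 ± 3.04 CPM; difference -1.34 ± 0.12, FDR = 9.6e-04).

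COL27A1, a fibrillar collagen gene whose row holds MIR455 (chromosome 8, 105095607 to 105203080), had the smallest SE among the 24 genes with the largest differences. It rose from 6.88, 5.44, 4.33 and 6.12 CPM to 18.1, 13, 11.8 and 16.2 CPM in Angus. In Holstein it went from 5.88, 5.36, 6.09 and 8.53 CPM to 5.85, 6.63, 6.67 and 8.67 CPM. The Angus change was 2.6-fold in a narrow range of animals, and the Holstein value of 1.08-fold did not pass the FDR (0.220; difference -1.26 ± 0.09, FDR = 3.01e-04). MTSS1, an actin-binding scaffold gene whose row overlaps NDUFB9, and AGAP2, a GTPase-activating protein of Arf proteins, also rose in Angus (2.06-fold and 2.57-fold) with Holstein values of 0.744-fold (FDR = 0.161) and 1.09-fold (FDR = 0.651). Their differences were -1.47 ± 0.29 (FDR = 0.0300) and -1.24 ± 0.25 (FDR = 0.0352).

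RASL11B, a small GTPase of the Ras family (chromosome 6, 70179364 to 70183823), fell in Holstein and had the largest of the negative differences. Its levels at 0 h were 3.80, 4.04, 7.23 and 4.54 CPM in Angus and 3.42, 6.60, 4.37 and 4.80 CPM in Holstein. At 2 h they were 5.18, 5.12, 5.02 and 6.27 CPM in Angus and 2.08, 1.89, 1.37 and 1.54 CPM in Holstein. The breeds overlapped before LPS, and each Holstein culture was below each Angus culture after it, with changes of 0.363-fold in Holstein and 1.13-fold in Angus (FDR = 0.484; difference -1.64 ± 0.28, FDR = 0.0185). ZNF280C, a zinc finger gene on chromosome X, and N6AMT1, a methyltransferase gene, fell in both breeds and further in Holstein, to 0.253-fold against 0.705-fold and to 0.280-fold against 0.724-fold (differences -1.48 ± 0.21, FDR = 0.00798, and -1.37 ± 0.22, FDR = 0.0139).

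MYCL1, a MYC family factor, FAM131B and SV2C, a synaptic vesicle glycoprotein, rose in both breeds and more in Angus. MYCL1 went from 0.457 ± 0.112 to 1.57 ± 0.24 CPM in Angus and from 1.66 ± 0.13 to 2.26 ± 0.31 CPM in Holstein (difference -1.34 ± 0.18, FDR = 0.00653). FAM131B went from 0.324 ± 0.179 to 1.27 ± 0.46 CPM in Angus and from 3.76 ± 0.88 to 5.10 ± 0.77 CPM in Holstein (difference -1.56 ± 0.18, FDR = 0.00418). For these 2 genes Holstein was above Angus in every culture at both hours, so that the larger fold in Angus started from a low level and the gap in level narrowed on the log scale. SV2C rose 3.65-fold in Angus and 1.52-fold in Holstein (difference -1.27 ± 0.27, FDR = 0.0387), with every Angus culture above every Holstein culture at 2 h.

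A further 7 genes were called with a lower change in Holstein: TBX2 (-1.53), which was among the largest differences but not separated between the breeds, and TSPAN18 (-1.21), ZMIZ1 (-1.18), LOC100299025 (-1.13), FAM43A (-1.06), SYNJ2 (-1.04) and ZSCAN20 (-1.02). The TSPAN18 row overlaps TP53I11 and LOC100847896. ZMIZ1, a PIAS-like transcriptional coactivator whose row overlaps LOC100847964, had the lowest FDR of all called genes (9.92e-05; SE 0.07), and is singled out after its values were seen. It rose in Angus from 37.0 ± 5.12 to 88.5 ± 15.4 CPM and stood at 31.0 ± 3.09 and 32.5 ± 1.75 CPM in Holstein. TBX2, a T-box repressor gene, was the only called gene whose per-animal changes overlapped: at 0 h it was at 0.0478 to 0.292 CPM in Angus, where animal 4 had no more than 3 counts, and at 0.799 to 1.91 CPM in Holstein. By the FDR within each breed, 8 of the 19 rose in both breeds, 5 rose in Angus without passing in Holstein, 3 fell in both, and 3 fell in Holstein without passing in Angus.

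**Figure D3:**
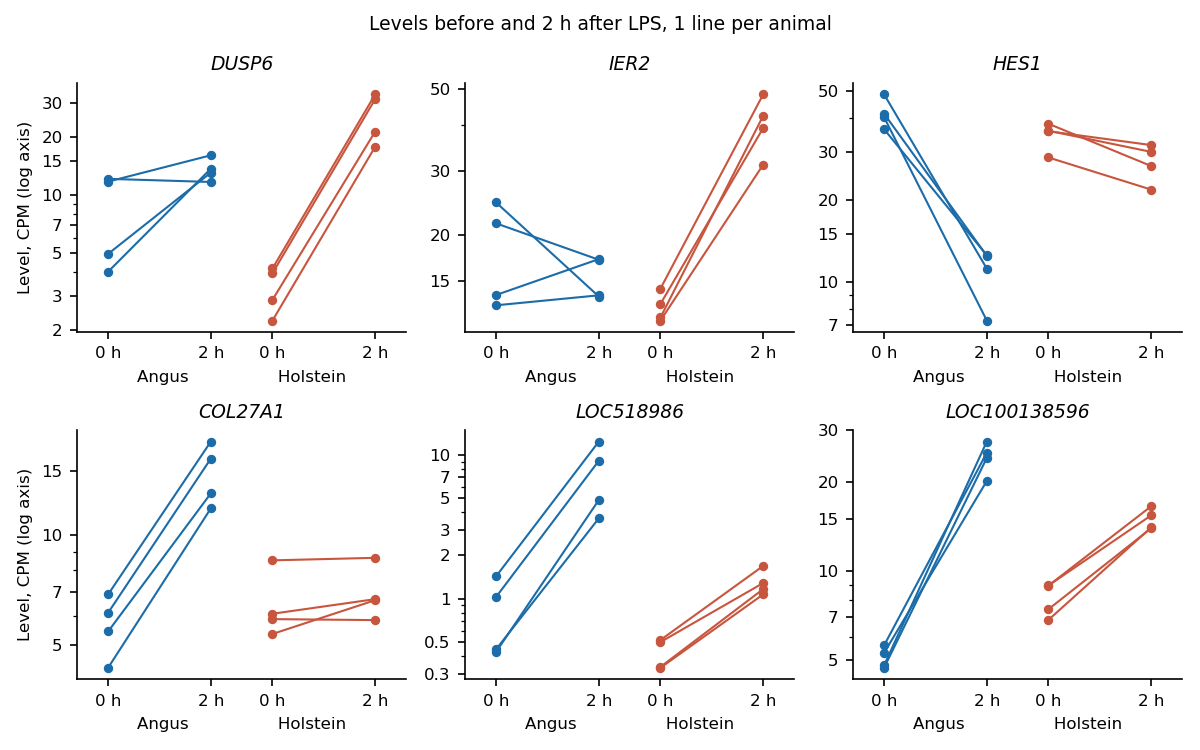
Each line joins the levels of 1 animal at 0 h and 2 h of LPS in CPM on a log axis that differs between panels, Angus in blue and Holstein in red. DUSP6 and IER2 rise steeply in Holstein, HES1 falls in Angus, COL27A1 rises in Angus with nearly level lines in Holstein, LOC518986 rises more in Angus, and LOC100138596 starts higher and ends lower in Holstein.

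The differences in change could go with a difference in level at 0 h, at 2 h or at both. Before LPS, the breeds overlapped for 18 of the 20 genes with a higher change in Holstein, and the median Holstein minus Angus difference in mean log2(CPM + 0.5) was -0.16. At 2 h every Holstein culture was above every Angus culture for 17 of them (all but HBEGF, ID1 and NR4A1), with a median difference of 1.17. Of the 19 genes with a lower change, 13 overlapped at 0 h, and at 2 h Holstein was below Angus without overlap for 11, above for 3 and overlapping for 5 (median difference in level 0.19 at 0 h and -0.77 at 2 h). Over all tested rows with a symbol, the breeds did not overlap in level for 18.9% at 0 h and 26.2% at 2 h. As the genes were called on the change between these hours, the shift in level follows in part from the call.

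The animals of a breed did not respond alike. Among the 20 genes with a higher change in Holstein, the SD of the change was larger in Angus for 17 (61.3% of all rows with a symbol), with a median SD of 0.38 in Angus and 0.20 in Holstein. Angus animal 4 had the lowest change of its breed for 16 of the 20 and the highest for none, and Angus animal 3 had the highest for 12. Among the 19 with a lower change, the SD was larger in Angus for 11, and none of the animals had the lowest or highest change for more than 8. Angus animals 3 and 4 each hold a library with the other counting of COL1A1. In that of animal 3 at 2 h, 79.5% of counts fell on rows with a symbol. The other libraries at 0 h and 2 h had 84.9% to 87.7%, and the part of this in the results was not tested. With the other counting of COL1A1 as a covariate all 20 stayed called, without the 4 animals concerned 9 did, and without the 4 libraries, which removed the block, none did.

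The pathway lists were chosen with earlier results of these data known, so they only describe where the called genes lay and test nothing. Of 24 tested immediate-early transcription factor genes, 6 were called higher and none lower, 18 were above 0 and the median difference was 0.57, against 39 called of 12950 and a median of -0.0044 for all rows. JUN (0.44 ± 0.08, FDR = 0.025) and KLF4 (0.74 ± 0.10, FDR = 0.0081) passed the FDR below 2-fold. Other members did not pass: FOSL1 (1.66 ± 0.41, FDR = 0.065), ATF3 (1.23 ± 0.35, FDR = 0.11) and FOSB (0.94 ± 0.38, FDR = 0.25) had positive values, while MYC (-0.01 ± 0.15) and KLF2 (-0.02 ± 0.13) were near 0. FOS fell in both breeds (Angus 0.492-fold, Holstein 0.413-fold; difference -0.25 ± 0.23, FDR = 0.668). EGR1 fell in Angus (0.447-fold, FDR = 0.0482), where animal 3 went up, and was at 1.28-fold in Holstein (FDR = 0.546), with a difference of 1.51 ± 0.58 that did not pass (FDR = 0.231).

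Of 12 tested MAP kinase feedback genes, DUSP6 alone was called, and the median was 0.095. DUSP5, the nuclear ERK phosphatase, had a larger estimate (2.26 ± 0.56, FDR = 0.0684) that missed the FDR, with levels at 2 h of 10.2, 7.39, 12.2 and 6.4 CPM in Angus and 14.9, 15.3, 13 and 18.8 CPM in Holstein, which did not overlap. Its per-animal changes in log2(CPM + 0.5) did overlap, with 3.66 in Angus animal 3 and 3.62 in Holstein animal 3. It was called with the likelihood-ratio test (FDR = 0.00311, and 0.00708 without the block), DESeq2 (0.0261), the counting covariate (0.0106), without the 4 animals (0.0319) and without Angus animal 3 (0.00394), and over the other alternatives its FDR reached 0.283. ERRFI1 (1.30 ± 0.39, FDR = 0.125), SPRY4 (0.84 ± 0.37, FDR = 0.30) and SPRY2 (0.81 ± 0.22, FDR = 0.096) had positive values and did not pass, and SPRY1 (-0.50 ± 0.28), which fell in both breeds, and DUSP10 (-0.52 ± 0.18) had negative ones. DUSP1, which acts on p38 and JNK, was at 0.876-fold in Angus and 0.958-fold in Holstein, and its difference was 0.13 ± 0.17 (FDR = 0.774). Among 6 tested genes of RNA decay and JAK-STAT feedback, ZFP36L2 was called and ZFP36L1 passed the FDR (0.78 ± 0.14, FDR = 0.024), with a list median of 0.69.

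**Figure D4:**
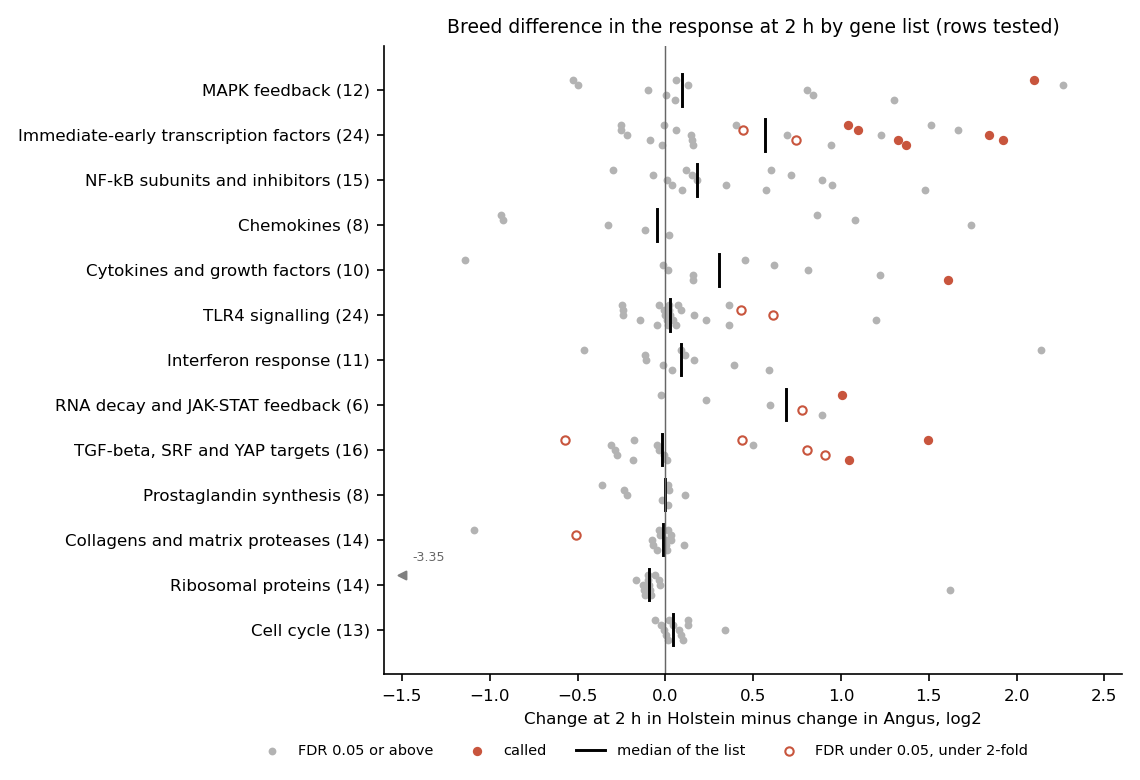
Each point is a tested member of a list (number of tested rows in brackets), placed by its change at 2 h in Holstein minus its change in Angus on the log2 scale; filled red points were called, open red points passed the FDR below 2-fold, grey points did not pass, and black bars are list medians. The immediate-early list holds 6 filled points and a median of 0.57, while the chemokine, NF-kB, interferon, prostaglandin, ribosomal and cell cycle lists hold no red point; 1 RPS27 row at -3.35 is drawn at the left edge.

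Subunits and inhibitors of NF-kB responded in both breeds, and none was called for the interaction in the main fit. Of 15 tested NF-kB subunits and inhibitors, 7 were called for LPS in Angus and 10 in Holstein; 13 of the 15 differences were above 0, with a median of 0.18, and none passed the FDR. NFKBIA, the inhibitor that is itself an early NF-kB target, went to 73.9, 53.8, 161 and 42.1 CPM in Angus and to 149, 242, 136 and 255 CPM in Holstein from 4.91 to 8.02 CPM in all 8 (difference 1.48 ± 0.43, FDR = 0.116). NFKBIA was called with the likelihood-ratio test (FDR = 0.0165). Without the 4 animals with the other counting its FDR was 0.0444, at a difference of 0.98, just under 2-fold. IRF1, a transcription factor of the interferon system whose row overlaps LOC100848038, went to 23.8, 18.1, 53.3 and 9.03 CPM in Angus and to 42.4, 94.8, 42.7 and 86.6 CPM in Holstein. Its per-animal changes were separated, yet the difference of 2.14 ± 0.50 had an FDR of 0.0588. That miss depended on the test: IRF1 was called with the likelihood-ratio test (FDR = 8.77e-04), DESeq2 (0.0137), the counting covariate (0.0424), without the 4 animals (0.00329) and without Angus animal 3 (0.00654), and over the other alternatives its FDR reached 0.373. TNFAIP3, the A20 deubiquitinase that ends NF-kB signalling, rose 36.5-fold in Angus and 39.6-fold in Holstein (difference 0.12 ± 0.57, FDR = 0.950).

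Chemokine and cytokine genes responded unevenly between animals. Of 8 chemokine genes tested none was called or passed the FDR (median -0.048), and of 10 cytokine and growth factor genes HBEGF alone was called (median 0.31), while CSF1, a macrophage growth factor, missed the FDR with 1.22 ± 0.30 (FDR = 0.0684). IL8 (CXCL8), the neutrophil chemokine, was at 34.5, 13.3, 94.7 and 13.2 CPM in Angus and 20.9, 79.5, 31.2 and 51.9 CPM in Holstein at 2 h, from 0.236 CPM or less in every culture at 0 h. Each Holstein culture was below each Angus culture before LPS, at 0.0533 to 0.0874 CPM, close to the floor of 3 counts. The breeds overlapped after LPS, and the difference in change was 1.74 ± 0.83 (FDR = 0.342). In log2(CPM + 0.5) the mean changes of IL8 were 6.17 in Holstein and 5.37 in Angus. For IL6 (chromosome 4, 31578311 to 31582679; a second row of that symbol on chromosome 8 was at 0.0725 CPM or less and was not tested) the levels at 2 h were 41.5, 18.6, 201 and 7.20 CPM in Angus and 9.02, 20.4, 10.6 and 31.0 CPM in Holstein, and the difference was -1.14 ± 1.01 (FDR = 0.649). CXCL2, whose row overlaps LOC100847175, had 0.86 ± 0.45 (FDR = 0.385), CCL5 1.08 ± 0.90 (FDR = 0.624) and CCL2 -0.94 ± 0.41 (FDR = 0.303). Angus animal 3 had the highest change of its breed for 4 of the 5 chemokine rows called for LPS in Angus and for all 7 of the NF-kB subunit and inhibitor rows called there. For IL8, IL6 and CCL5 the SEs of 0.83 to 1.01 were close to the 2-fold limit itself, so that a 2-fold breed difference in their response was not detectable with 4 animals a breed.

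TNF and CCL20 were too low for the filter on expression. TNF, whose row overlaps LOC100847561, was at 0 to 0.0651 CPM in all cultures at 0 h and at 0.112, 0.190, 1.41 and 0.0519 CPM in Angus and 1.64, 5.00, 1.33 and 4.35 CPM in Holstein at 2 h. Its per-animal changes were barely separated, with 1.82 in Angus animal 3 and 1.84 in Holstein animal 3, whereas the levels overlapped through Angus animal 3, and the interaction fitted with a looser filter did not pass (FDR = 0.526). CCL20 was at 0 in all 8 cultures at 0 h and at 0, 0.405, 6.29 and 0.0208 CPM in Angus and 0.909, 4.06, 0.562 and 1.83 CPM in Holstein at 2 h.

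Receptor and adaptor genes of the TLR4 pathway differed little in their change. Of 24 tested, none was called and 2 passed the FDR, IRAK2 (0.61 ± 0.12, FDR = 0.033), a kinase of the receptor complex, and the adaptor TICAM2 (0.43 ± 0.09, FDR = 0.033), with a list median of 0.024. At 2 h, TLR4 itself did not exceed 1.29 CPM in any Angus culture and did not go below 2.53 CPM in any Holstein culture, and its change differed by 0.36 ± 0.31 (FDR = 0.635). PTGS2, the inducible prostaglandin synthase whose row overlaps LOC100138376, rose 25.3-fold in Angus and 25.6-fold in Holstein, a difference of 0.02 ± 0.39 (FDR = 0.992). No interferon response (11 tested), prostaglandin (8), ribosomal protein (14) or cell cycle (13) gene on the lists passed the FDR, and of 14 listed collagens and matrix proteases only the protease inhibitor TIMP3 did (-0.51 ± 0.07, FDR = 0.009). The collagen gene COL27A1, called with a lower change in Holstein, was not on that list. COL1A1, the gene whose reads were counted differently in 4 libraries, had a value of -1.09 ± 0.78 (FDR = 0.56).

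The breed difference at 8 h was set against that at 2 h by a test over all 24 libraries, from which the 0 h libraries cancel. Over 12958 rows with a symbol it called 99 (0.764%), 57 with a difference that was higher at 8 h and 42 lower. The FDR limit alone was passed by 981 of the 12958. Of the 39 genes called at 2 h, 36 could be tested; 32 of them passed the FDR and 23 were called, and none was called for the interaction at 8 h itself. These 36 were chosen on 2 h libraries that also enter this test, so that a smaller difference at 8 h was to some extent built in. IER2 had a difference between the breeds' changes of 1.84 at 2 h and 0.16 ± 0.21 at 8 h (8 h minus 2 h, -1.70 ± 0.21, FDR = 2.3e-04). HES1 went from 1.63 to 0.01 ± 0.14 and KLF10 from 1.37 to -0.10 ± 0.13 (FDR = 1.11e-05 and 1.48e-05). COL27A1 went from -1.26 to -0.08 ± 0.08 (FDR = 4.52e-07).

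NR4A1, RASL11B, AGAP2 and FAM43A were the 4 genes for which the difference between the hours did not pass the FDR. NR4A1 had 0.85 ± 0.25 at 8 h (FDR of that value 0.0951; 8 h minus 2 h, -0.49 ± 0.24, FDR = 0.267), and DUSP6 went from 2.10 to 0.90 ± 0.28 (FDR of that value 0.119; 8 h minus 2 h, -1.20 ± 0.27, FDR = 0.0133). SV2C had the opposite sign at 8 h (0.86 ± 0.25, FDR of that value 0.0906). Its 8 h minus 2 h value was 2.14 ± 0.24 (FDR = 9.21e-05). BBC3 (-0.53) and SYNJ2 (0.48) were also among the genes with the opposite sign at 8 h, while 24 of the 36 kept their sign. The FDR of 8 h minus 2 h was passed by 981 of all 12958 rows with a symbol. Of 8 chemokine genes tested, 3 passed it, each with a higher difference at 8 h, as did 4 of 11 interferon response genes. Of 9 cytokine and growth factor genes, 2 passed with a higher and 1 with a lower difference. The called ones were IL6 (2.47 ± 0.47, FDR = 0.00514), IL8 (1.90 ± 0.24, FDR = 2.3e-04), CXCL6 (1.95), MX1 (2.15) and IRF7 (1.05), none of which was called at 2 h. CXCL2, CCL2 and CCL5 did not pass (FDR = 0.236, 0.125 and 0.243). DUSP5 was lower (-1.86 ± 0.44, FDR = 0.0172).

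**Figure D5:**
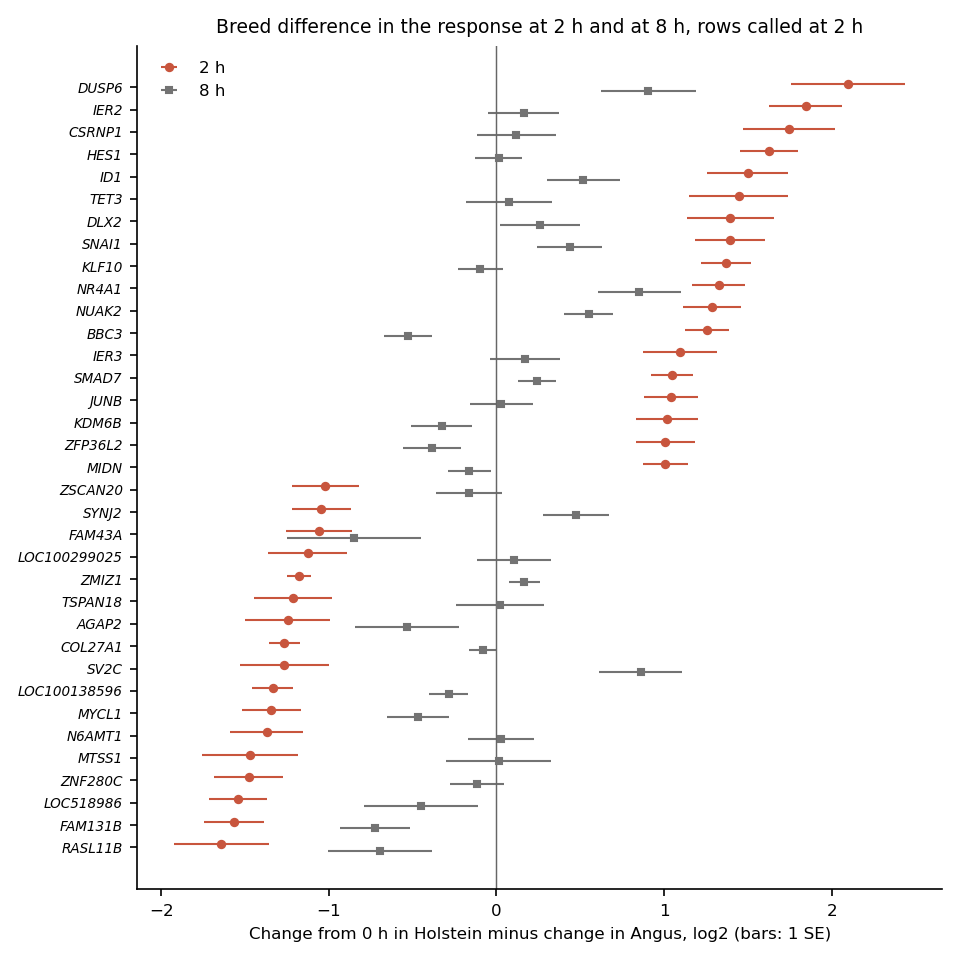
For 35 of the 36 genes called at 2 h that could be tested with all 24 libraries, points give the change from 0 h in Holstein minus that in Angus on the log2 scale at 2 h (red) and 8 h (grey), with bars of 1 SE. The 2 h values lie beyond 1 or -1 by the choice of genes, and the 8 h values lie closer to 0, with 0.90 for DUSP6 and 0.85 for NR4A1. Of all 36 genes, 24 kept their sign at 8 h. SV2C (0.86), BBC3 (-0.53) and SYNJ2 (0.48) are among those on the opposite side.

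The calls rested on the pairing of animals and on single animals. With each animal left out in turn, 18 of the 39 genes were called in 4 or fewer of the 8 fits. They were EGR3, IER3, HBEGF, TET3, DLX2, ZFP36L2, KDM6B, MIDN, RASL11B, MTSS1, SV2C, AGAP2, TBX2, TSPAN18, LOC100299025, FAM43A, SYNJ2 and ZSCAN20. Without the animal as a block the count fell to 10, the likelihood-ratio test with the block gave 76, and leaving out animals in turn gave 20 (without Holstein animal 3), 21 (without Angus animal 4) to 81 (without Angus animal 3); the sign of each called gene was kept wherever it could be fitted, and 16 genes were called in all 8 of these fits (among them HES1, MYCL1, FAM131B, NR4A1, IER2, COL27A1, LOC100138596, SNAI1, KLF10, NUAK2, BBC3, LOC518986, CSRNP1, ZMIZ1 and ZNF280C). With the counting class as a covariate the calls lost were 6 of the 19 lower genes (MTSS1, SV2C, AGAP2, TBX2, TSPAN18 and LOC100299025), and the split of calls was 36 higher to 19 lower; without the 4 animals concerned 13 of the 39 stayed called among 30 calls.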

How the data were processed

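RNA was sequenced as poly(A) libraries on an Illumina HiSeq, and per the file headers and the study's methods the authors removed reads of low quality, with uncalled bases or too short, mapped the rest with NextGENe 2.3.4 to the bovine genome (UMD v3.1), and deposited raw read counts for every annotated gene span, introns included. CASAVA 1.7 is named in the submitters' processing notes. The deposited average coverage per base served only as a signal for checking the counting of reads. Rows carry an annotated strand, but whether the libraries kept strand was not given in the sources used here. Reads of overlapping and antisense rows therefore cannot be told apart, and overlapping symbols are named with each called gene. Lysates from wells of the same culture had been pooled, so the replicate was the animal.

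Counts of the 16 libraries at 0 h and 2 h were fitted with edgeR 4.0.16 in R 4.3.3 (TMM scaling, quasi-likelihood F test) after keeping rows with at least 1 CPM in at least 50% of libraries. The model held the animal as a block, the hour, and the hour by breed term. The study's methods state a likelihood-ratio test for breed and LPS and none for the interaction. P-values were adjusted by Benjamini-Hochberg over all 20157 rows tested, of which 12950 had a symbol. SEs of log2 differences were derived from the F statistics, and levels are TMM-scaled CPM. Same-numbered libraries of an animal deviated together from their group means (r from 0.54 to 0.74, mean 0.65). Between other animals of the breed r was at most 0.21, so the numbers in the labels pair the samples. The mean of -0.22 between other animals follows largely from taking deviations from group means. No pair of libraries within a group agreed within sampling noise (lowest chi-square per degree of freedom 33.0). The script was tested on simulated counts.

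Genes were named by rule: the 12 largest positive and 12 largest negative differences among called and separated genes, every called member of a list, any called gene that overlapped between breeds and was larger than these, and a panel of 18 LPS genes. Of the called genes, 1 is counted but not reported here. The members, lists and panel were chosen with earlier results of these data known. Alternatives were no block, a likelihood-ratio test, DESeq2 1.42.0, RLE scaling, looser filters, the counting of COL1A1 as a covariate, leaving out the libraries or animals concerned, other limits, and leaving out each animal in turn. The 8 h libraries entered only the comparison of hours. Counting floors and CPM depths cover counting error only.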

Additional observations from a re-analysis of the deposited data

Results flagged for a closer look

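For 39 genes with a symbol the change from 0 h to 2 h differed between Holstein and Angus by the interaction test. The differences in log2 change (Holstein minus Angus) were 2.10 for DUSP6, 1.92 for EGR3, 1.84 for IER2, 1.75 for CSRNP1, 1.63 for HES1, 1.61 for HBEGF, 1.5 for ID1, 1.45 for TET3, 1.4 for DLX2, 1.39 for SNAI1, 1.37 for KLF10, 1.33 for NR4A1, 1.10 for IER3, 1.04 for SMAD7, 1.04 for JUNB and 1.01 for ZFP36L2. On the other side they were -1.64 for RASL11B, -1.56 for FAM131B, -1.54 for LOC518986, -1.48 for ZNF280C, -1.47 for MTSS1, -1.37 for N6AMT1, -1.34 for MYCL1, -1.34 for LOC100138596, -1.27 for SV2C, -1.26 for COL27A1 and -1.24 for AGAP2.

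In 3 of the 84 groups of 4 animals that were examined, 1 animal lay far from the others in its change in log2(CPM + 0.5), where chance gives about 1 in 20. RASL11B went to -0.49 in Angus animal 3, against 0.31 to 0.43 in the other 3. MTSS1 was at -0.85 in Holstein animal 2, where the others lay at -0.16 to -0.03, and COL27A1 at 1.19 in Angus animal 2, the lowest of a breed whose others lay at 1.33 to 1.36.

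Outside the rows with a symbol, 35 intervals without a symbol were also called for the interaction, 23 higher and 12 lower in Holstein, and 8 of them adjoined a called gene.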

How the results depend on the processing

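The number of genes called at 2 h was 39. Without the replicate block it was 10, all among the 39, and with the likelihood-ratio test 76, which held all 39. DESeq2 gave 61 (37 shared), the FDR limit alone 321, and an FDR limit of 0.01 left 16. Leaving out the libraries with the other counting of COL1A1, which also removed the block, left 1. Leaving out animals in turn gave 20 (without Holstein animal 3) to 81 (without Angus animal 3), with 21 without Angus animal 4. The count for 8 h against 2 h was 99, and 26 without the block. RLE scaling gave 39 (37 shared) and shifted no difference by more than 0.0157. All called genes kept their sign wherever a value could be fitted.

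Of 821 values of 42 named genes under alternatives, 17 changed sign, all in genes that were not called. Leaving out animals in turn moved IL6 from -1.68 to 0.0865 (without Angus animal 3), TNFAIP3 from -0.50 to 0.43 and PTGS2 from -0.284 to 0.437. CCL2 was at 0.206 without the libraries concerned. TNFAIP3 was at -1.14 without the animals concerned (FDR = 0.0338), and at -0.50, -0.19 and -0.02 without Angus animal 4, Holstein animal 2 and Holstein animal 4. FOS was at 0.0239 with the counting covariate, 0.175 without the animals and 0.0449 without the libraries. PTGS2 was at -0.357 without the block, -0.367 with the likelihood-ratio test without it, -0.00219 with the 4-library filter, and at -0.112, -0.0285, -0.284, -0.0204 and -0.136 without Angus animals 1, 2 and 4 and Holstein animals 1 and 2. The cause was not tested. With 4 animals a breed, SEs from 0.23 (FOS) to 1.01 (IL6) limit what these data can show for them. IRF1 and DUSP5 missed the FDR narrowly and were called under 5 and 6 of the alternatives. NFKBIA, with a higher FDR in the main fit, was called with the likelihood-ratio test.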

Other observations

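Some genes below the expression filter were measured with a looser filter of 1 CPM in at least 4 libraries. CISH, an inhibitor of JAK-STAT signalling, had a difference of 1.48 ± 0.29 (FDR = 0.0352) there, with a log2 change of 0.21 in Angus and 1.69 in Holstein, and is named after its values were seen. CX3CL1, a membrane-bound chemokine, had an uncertain value of 3.96 ± 2.08 (FDR = 0.417).

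Among genes of innate defence outside the lists, also named after their values were seen, the breed difference was higher in Holstein at 8 h than at 2 h for BST2, which tethers virions (2.58), the pentraxin PTX3 (2.12), complement factor CFB (1.98), the superoxide dismutase SOD2 (1.78) and the adhesion molecule VCAM1 (1.56) on the log2 scale. Not all innate genes called by that test went this way. NOD1, which the paper counts among genes that recognise pathogen patterns, was lower at 8 h (-1.23).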
